A study of Mus musculus with 2 samples.

Results

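The genes described here carry out glycolysis, move glucose and lactate across the cell membrane, direct pyruvate into or away from the mitochondria, and sense or respond to low oxygen. They were taken from a fixed list of 45 symbols, and all 45 were found among the 28009 genes that received a value in the transcript table. Haematopoietic stem cells (HSCs), which maintain every blood lineage, had been sorted from fetal liver at embryonic day 14.5 and from adult bone marrow, and their polyadenylated RNA was sequenced to compare gene expression at these stages. The adult group has 2 samples, replicates 1 and 2, of B6129SF1 mice 6 to 8 weeks old. Neither the fetal strain, the sort antibodies nor how many mice went into a library is known from the labels. The values are FPKM, fragment counts scaled to feature length and to the mapped fragments of the library. They come as a transcript table and a gene table, each with an FL and a BM column. FL was read as fetal liver from the protocol alone, since no fetal sample is among the 2 listed. BM was read as the adult group from its header alone.

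Neither table has replicate columns, so the error of each value is unknown and no test was possible. The depth is unknown, since FPKM keeps none. The transcript table, with the FPKM of all linked transcripts summed per gene, gives the main comparison of BM with FL. The gene table's BM column holds nearly the same values as the FL column of the transcript table: after a median shift of -0.07 on the log2 scale, 10050 of 11077 genes lay within 1.5-fold. The same material thus carries opposite headers, and the files do not show which table's header is right. The headers of the transcript table are used as given, so its directions rest on them, and the gene table's BM column is used as a check of its FL sums. Levels of 12 HSC identity genes are given as a description. All 12 reached 1 FPKM in the transcript table, with a summed level of 558 FPKM in FL against 800 in BM. The sums are partial, since linked transcripts of Ptprc and Slamf1 covered 15.5% and 55.2% of the gene table's BM value. All 11 erythroid and all 10 macrophage markers also reached 1 FPKM, so this level cannot tell HSCs from other cells.

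As background, glycolysis splits glucose into pyruvate in the cytosol, and lactate dehydrogenase can then turn pyruvate into lactate, which leaves the cell through monocarboxylate transporters. Pyruvate dehydrogenase instead commits pyruvate to the mitochondria, and the PDK kinases switch that enzyme off. Hypoxia-inducible factors (HIFs) activate many of these genes when oxygen is scarce, and the prolyl hydroxylases mark HIF alpha subunits for destruction when it is plentiful. Adult bone marrow HSCs are known for reliance on glycolysis and for an oxygen-poor niche, and fetal liver HSCs for rapid division.

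Of the 45 genes, 12 were at least 2-fold apart between the columns of the transcript table. In BM 8 of these were lower (Pklr, Slc16a3, Hif3a, Ankrd37, Eno1, Pgam1, Slc2a1 and Epas1) and 4 were higher (Pdk4, Pfkfb2, Aldoc and Ddit4). All 45 genes reached 1 FPKM in at least 1 column. Their 12 calls are 26.7% of the list, and 22.1% of all 12220 genes at that level were as far apart. The lower genes were 17.8% of the list against 8.82% of all genes, and the higher genes 8.89% against 13.3%. The median relative log2 ratio of the list was -0.38, and that of all genes at 1 FPKM or more was 0.02. This ratio is log2 of BM over FL with 0.1 FPKM added to each, less the median over genes, and it understates the difference of genes near 0.1 FPKM. Of the list 75.6% had a ratio below 0, and 49.1% of all genes had.

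**Figure D1:**
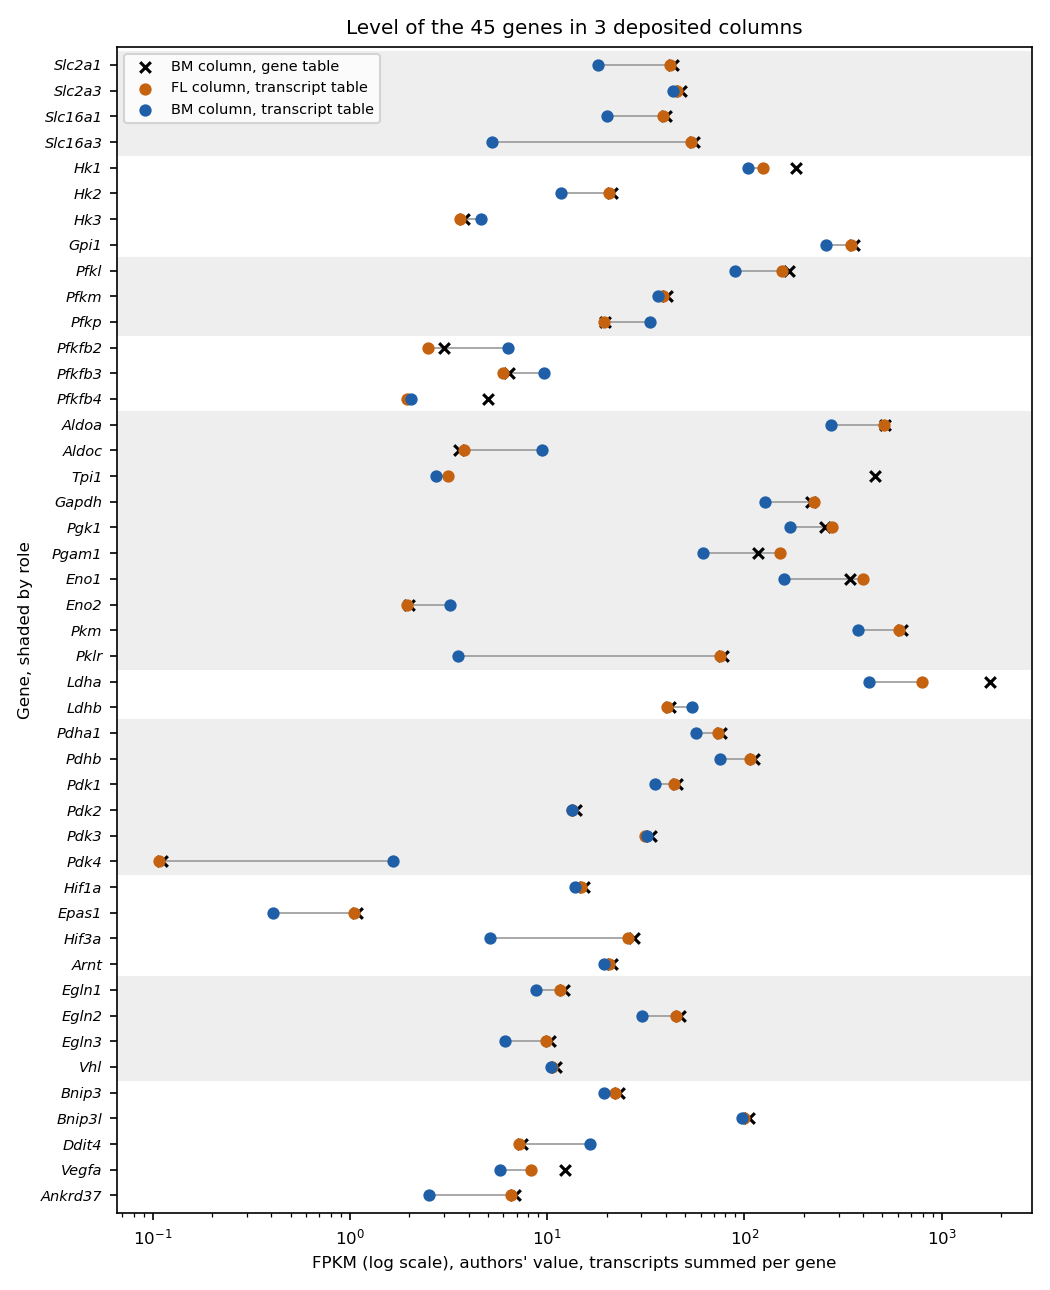
Level of each of the 45 genes in FPKM on a log axis, grouped by role with alternate shading. Orange points are the FL column and blue points the BM column of the transcript table, black crosses are the gene table's BM column, and there are no error bars because each value is a single deposited number. The crosses lie on the orange points for most genes and far from them for Tpi1, Ldha and Pfkfb4.

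The sum over linked transcripts matched the gene value within 1.5-fold for 42 of the 45 genes. For the other 3, the gene value was well above the linked sum. The linked transcripts of Tpi1, the triosephosphate isomerase gene, gave 3.15 FPKM in FL, where the gene table's BM column had 460 FPKM. Those of Ldha, which encodes the main subunit of lactate dehydrogenase in most cells, gave 797 FPKM against 1768 FPKM. Those of Pfkfb4 gave 1.95 FPKM against 5.03 FPKM. Ratios of these 3 genes describe the linked transcripts only.

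The columns also differ in markers of cells other than HSCs, and the part of those cells in the differences of the 45 genes was not tested. Of all genes 8.82% were lower and 13.3% higher in BM. Of 11 erythroid markers all 11 were lower in BM, with a summed level of 848 FPKM in FL against 52.2 in BM. Alas2, the haem synthesis gene of red cell precursors, was listed at 0 in BM. In the gene table's BM column, the check of FL, the 11 markers summed to 419 FPKM. The FL values of the globin genes Hba-a1, Hba-a2, Hbb-bt and Hbb-bs were over 1.5-fold above that check, so the FL sum is uncertain. Of 10 macrophage markers all 10 were lower, summing to 267 FPKM in FL against 7.06 in BM. Of 10 neutrophil and monocyte markers 8 were lower (522 and 97.1 FPKM in sum), and of 12 proliferation genes 8 were lower (917 and 439 FPKM). The proliferation sums are partial, since linked transcripts of Pcna and Mcm5 covered 3.10% and 33.6% of the gene table's BM value. Of 8 megakaryocyte markers 5 were higher, with a sum of 210 FPKM in FL against 906 in BM. In such bulk libraries fewer cells of a type and less RNA per cell cannot be told apart.

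The genes of glucose uptake and lactate export were lower in BM for 2 of 4 members and none was higher. Of all genes 8.82% were lower and 13.3% higher. Slc2a1, which encodes the widely expressed glucose carrier GLUT1, was at 42.0 FPKM in FL against 18.1 in BM, a relative log2 ratio of -1.22. Slc2a3, which encodes the high-affinity carrier GLUT3, was nearly level, at 45.8 FPKM in FL against 43.3 in BM. Slc2a1 thus made up 47.9% of the summed FPKM of both carriers in FL and 29.5% in BM.

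Slc16a3 encodes MCT4, the lactate exporter of strongly glycolytic cells. It was at 53.6 FPKM in FL against 5.27 in BM (relative log2 ratio -3.33). Its main transcripts were lower in parallel: Slc16a3-201 was at 21.5 FPKM in FL against 2.60 in BM, and Slc16a3-207 at 24.9 and 2.61 FPKM. Slc16a1, which encodes the monocarboxylate carrier MCT1, was at 38.6 FPKM in FL against 20.2 in BM, just inside 2-fold. The share of Slc16a1 in the pair was 41.9% in FL and 79.3% in BM, so the carrier gene with the higher level was Slc16a3 in FL and Slc16a1 in BM.

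The promoters of Slc16a3, Ankrd37 and Ddit4 are printed here because these genes lay on opposite sides of the comparison, lower for Slc16a3 and Ankrd37 and higher for Ddit4, and each holds the core letters of the hypoxia response element. The capitals mark ACGTG or GCGTG on either strand, and overlapping matches appear as 1 longer run. The windows are RefSeq's, on build GRCm38.p6 and not on the mm9 build of the tables, and run from 250 bases before to 50 bases after the annotated start.
Slc16a3 promoter, chr11:120948817-120949116, plus strand: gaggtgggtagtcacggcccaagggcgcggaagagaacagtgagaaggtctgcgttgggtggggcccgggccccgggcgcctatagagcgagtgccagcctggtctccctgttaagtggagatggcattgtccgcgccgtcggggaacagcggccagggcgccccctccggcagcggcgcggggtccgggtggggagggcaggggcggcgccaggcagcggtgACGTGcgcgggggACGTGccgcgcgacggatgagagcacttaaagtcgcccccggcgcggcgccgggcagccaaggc
Ankrd37 promoter, chr8:45999801-46000100, minus strand: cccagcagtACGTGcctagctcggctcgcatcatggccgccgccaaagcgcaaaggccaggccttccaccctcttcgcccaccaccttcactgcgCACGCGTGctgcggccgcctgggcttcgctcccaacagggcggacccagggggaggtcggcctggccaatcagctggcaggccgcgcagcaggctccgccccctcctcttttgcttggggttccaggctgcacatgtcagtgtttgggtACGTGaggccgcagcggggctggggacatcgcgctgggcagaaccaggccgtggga
Ddit4 promoter, chr10:59951721-59952020, minus strand: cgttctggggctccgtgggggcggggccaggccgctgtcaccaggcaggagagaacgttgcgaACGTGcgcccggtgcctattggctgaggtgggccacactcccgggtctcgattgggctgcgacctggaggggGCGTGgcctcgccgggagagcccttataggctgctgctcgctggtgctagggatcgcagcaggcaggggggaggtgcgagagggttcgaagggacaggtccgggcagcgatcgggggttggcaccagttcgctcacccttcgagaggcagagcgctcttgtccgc

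In these windows the letters occurred 2 times for Slc16a3, 4 times for Ankrd37 and 2 times for Ddit4. A promoter window was found for 42 of the 45 genes, and 37 of these 42 held the letters in at least 1 window. The share was 88.1%, against 46.7% of all 27025 genes with a window and 68.4% of the 9265 of them that reached 1 FPKM in the transcript table. Counted by window, since a gene can have several, it was 78.7% of 61 windows against 43.8% of all 32851 windows. Of the 11851 windows of genes that reached 1 FPKM, 62.2% held the letters. The letters were in 6 of 7 genes that were lower in BM, in all 4 that were higher and in 27 of 31 that were within 2-fold. Genes of either direction thus held them, and a match is a description of letters, not of HIF binding.

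The hexokinases trap glucose in the cell as glucose 6-phosphate, and none of the 3 genes was 2-fold apart, beside 22.1% of all genes. Hk1, the broadly expressed form bound to mitochondria, was at 124 FPKM in FL against 104 in BM and held 83.7% and 86.4% of the hexokinase FPKM. Its linked transcripts accounted for 67.4% of the 184 FPKM in the gene table's BM column. Hk2, the form most often induced with high glycolytic rates, was at 20.6 and 11.7 FPKM (relative log2 ratio -0.81), and Hk3, a form of myeloid cells, at 3.60 and 4.60 FPKM. Gpi1, which encodes glucose phosphate isomerase, was at 347 FPKM in FL against 259 in BM.

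Phosphofructokinase catalyses the committed step of glycolysis, and its 3 subunit genes differed in direction while each stayed within 2-fold. Among all genes, 22.1% were at least 2-fold apart. Pfkl, the liver-type subunit, was at 155 FPKM in FL against 89.8 in BM. Pfkp, the platelet-type subunit, was at 19.3 and 33.2 FPKM, and Pfkm, the muscle-type subunit, at 38.5 and 36.3 FPKM. The share of Pfkl in the family was 72.8% in FL and 56.4% in BM, and that of Pfkp 9.10% and 20.8%. The megakaryocyte markers, which were higher in the BM column, are given above, and their part in the Pfkp values was not tested.

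Behind the level value of Pfkm stood transcripts that differed in opposite directions. Pfkm-202, which starts at the upstream promoter, was at 11.5 FPKM in FL against 1.60 in BM. Pfkm-201, which starts 5 bases before the annotated start of the second window, was at 27.0 FPKM in FL against 34.7 in BM. The share of Pfkm-201 was 70.0% in FL and 95.6% in BM, a difference of 25.5 percentage points. Of 25 genes of the list with at least 10 FPKM in both columns and 2 or more linked transcripts, Pfkm was the only one with a usage difference of 20 points or more. For 18 of the 25 it was under 10 points. How often genes outside the list differ as much in usage was not calculated, so Pfkm cannot be called unusual among all genes. Both promoters are shown because these transcripts start there, with ACGTG or GCGTG on either strand in capitals. The upstream window held 3 matches, since the palindrome CACGTG counts on each strand, and the downstream window held 2.
Pfkm upstream promoter, chr15:98092339-98092638, plus strand: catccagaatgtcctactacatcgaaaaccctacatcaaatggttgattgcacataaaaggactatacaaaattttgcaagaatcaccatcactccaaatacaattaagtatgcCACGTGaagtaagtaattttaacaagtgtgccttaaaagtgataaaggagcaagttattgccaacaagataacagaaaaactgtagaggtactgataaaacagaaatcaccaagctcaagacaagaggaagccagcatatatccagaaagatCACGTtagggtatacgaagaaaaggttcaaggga
Pfkm downstream promoter, chr15:98108221-98108520, plus strand: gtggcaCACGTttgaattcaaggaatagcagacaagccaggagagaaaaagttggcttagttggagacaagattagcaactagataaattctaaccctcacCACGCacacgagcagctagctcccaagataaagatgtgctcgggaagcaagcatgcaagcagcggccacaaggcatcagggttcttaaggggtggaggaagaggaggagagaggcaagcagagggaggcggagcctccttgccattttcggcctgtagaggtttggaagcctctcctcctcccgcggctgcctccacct

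The PFKFB enzymes make or remove fructose 2,6-bisphosphate, the activator of phosphofructokinase, and their genes were at low levels. Pfkfb2, known from heart and from insulin signalling, was at 2.50 FPKM in FL against 6.31 in BM, which is 2.46-fold higher. Pfkfb3, the form that favours glycolysis most strongly and a HIF target, was at 6.00 and 9.60 FPKM (relative log2 ratio 0.66). Pfkfb4 was at 1.95 and 2.04 FPKM, from the linked transcripts only.

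**Figure D2:**
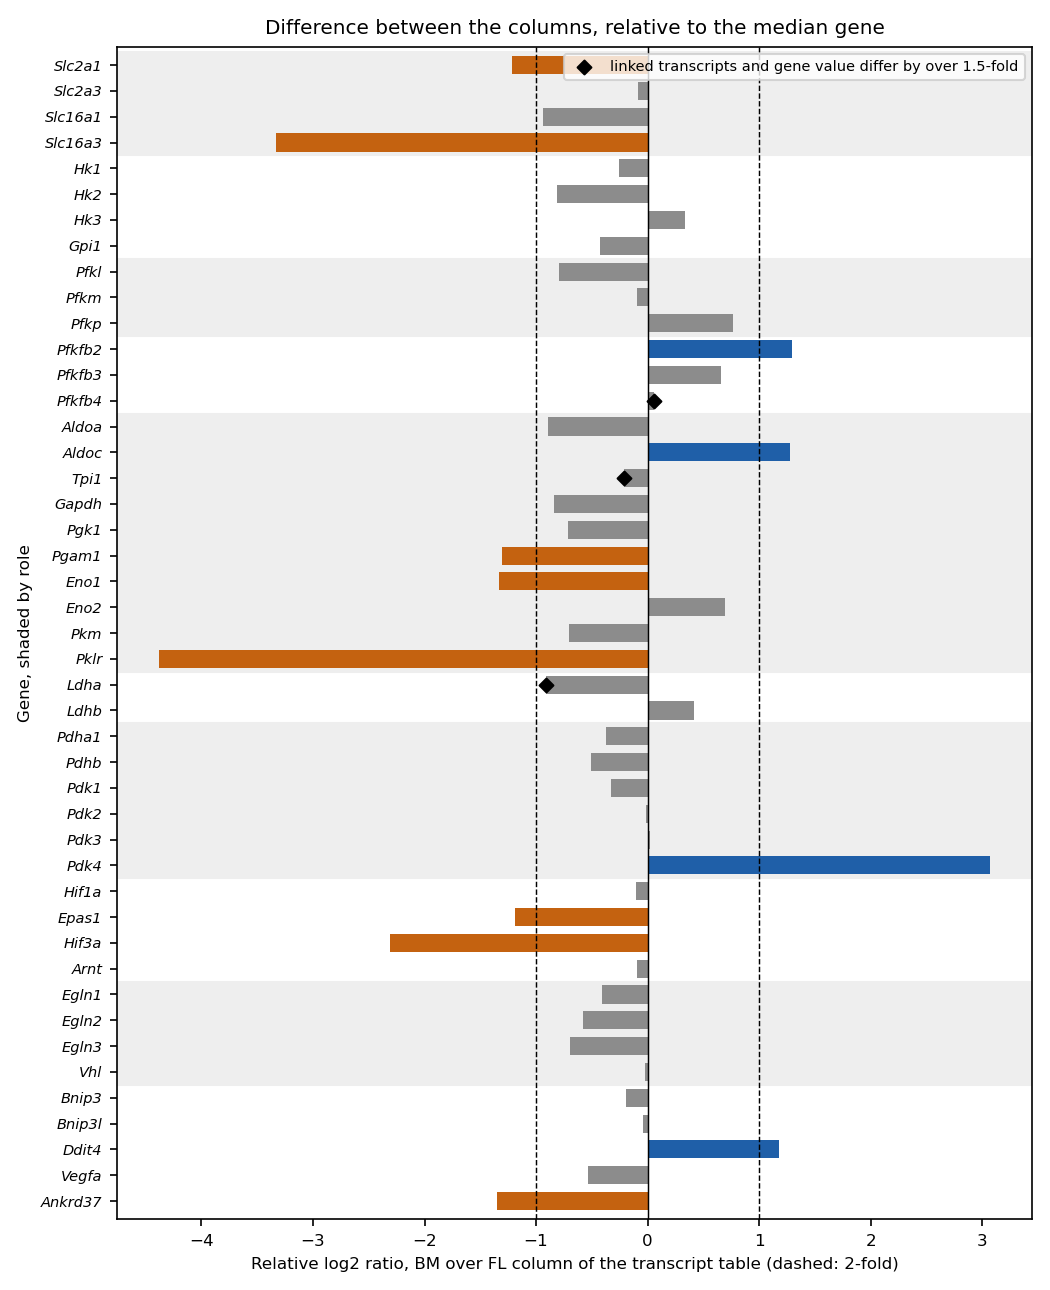
Relative log2 ratio of BM over FL in the transcript table for each of the 45 genes, grouped by role. Blue bars are at least 2-fold higher and orange bars at least 2-fold lower in BM, dashed lines mark 2-fold, and diamonds mark the 3 genes whose linked transcripts and gene value differ by over 1.5-fold. Most bars point left, and Pklr (-4.38) and Slc16a3 (-3.33) reach farthest to that side.

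The enzymes of the lower part of glycolysis, from aldolase to pyruvate kinase, ranged from 1.94 FPKM for Eno2 to 609 FPKM for Pkm in FL. In BM 3 of 10 genes were at least 2-fold lower, 1 was higher and 6 were within 2-fold, where 8.82% of all genes were lower and 13.3% higher. Their median relative log2 ratio was -0.77, beside 0.02 for all genes. The main aldolase gene Aldoa was at 510 FPKM in FL against 275 in BM. Gapdh, which encodes glyceraldehyde 3-phosphate dehydrogenase, was at 226 and 127 FPKM (-0.84), and Pgk1, the first ATP-making kinase of the pathway, at 277 and 170 FPKM (-0.71). Both are commonly used reference genes, and both stayed within 2-fold. Tpi1 was at 3.15 and 2.72 FPKM, from the linked transcripts only.

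Pgam1 and Eno1, which encode the mutase and enolase that lead to phosphoenolpyruvate, were the lower genes beside Pklr. Pgam1 was at 151 FPKM in FL against 61.4 in BM (-1.31), and Eno1 at 399 and 159 FPKM (-1.33). The gene table's BM column had lower values than FL for these genes, 117 FPKM for Pgam1 and 343 FPKM for Eno1. With those values in place of FL, the ratios were -0.81 and -0.98, and neither gene was 2-fold apart. Eno1b, a retrotransposed copy of Eno1, was at 64.4 FPKM in FL against 26.2 in BM, and reads shared with such copies make the separate values uncertain.

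The minor aldolase and enolase genes went the other way from the major ones, whereas Pklr, the minor pyruvate kinase gene, was lower like Pkm. Aldoc, the brain-type aldolase gene, was at 3.80 FPKM in FL against 9.40 in BM (2.43-fold higher), and Eno2, the neuronal enolase gene, at 1.94 and 3.21 FPKM (0.69). Both stayed small parts of their families. Aldoc held 0.739% of the aldolase FPKM in FL and 3.30% in BM, and Eno2 held 0.485% and 1.98% of the enolase FPKM. With only the most abundant transcript of each gene the Aldoc ratio was 0.87 and under 2-fold.

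Pklr encodes the pyruvate kinase of liver and red cells and had the lowest ratio of the 45 genes in the transcript table. It was at 75.4 FPKM in FL against 3.53 in BM, which is 20.9-fold lower. Its share of the pyruvate kinase FPKM was 11.0% in FL and 0.929% in BM. The gene is known to have an upstream promoter used in red cells and a downstream promoter used in liver. Pklr-201, which begins exactly at the upstream start, held 95.3% of the FPKM in FL and 72.9% in BM. The erythroid markers given above were also lower in BM, and among them Klf1, an erythroid transcription factor gene, was at 82.8 FPKM in FL against 7.82 in BM. Of 7 hepatocyte markers at 1 FPKM or more 6 were lower in BM, where 8.82% of all genes were lower. The 9 hepatocyte markers summed to 42.7 FPKM in FL against 13.3 in BM. Among them Alb was at 6.46 and 0.0190 FPKM. Trf, the highest of them in FL, was within 2-fold, at 17.3 and 9.99 FPKM. Their part in the Pklr values was not tested.

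The upstream Pklr window is shown because nearly all Pklr signal in FL starts there. Capitals mark AGATAA or TGATAA, letters bound by GATA factors, and CACCC, letters bound by Krüppel-like factors, on either strand, and the run GGGTG is CACCC on the other strand.
Pklr upstream promoter, chr3:89135892-89136191, plus strand: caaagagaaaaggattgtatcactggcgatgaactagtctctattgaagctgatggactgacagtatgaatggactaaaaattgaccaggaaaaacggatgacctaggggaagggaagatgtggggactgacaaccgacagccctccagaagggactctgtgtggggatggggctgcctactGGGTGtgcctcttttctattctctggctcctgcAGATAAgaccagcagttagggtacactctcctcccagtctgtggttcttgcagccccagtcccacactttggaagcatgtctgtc

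The window held 1 match to each kind of letters, and none to the hypoxia response core. Of all 32851 windows of 300 bases, 18.6% held the GATA letters and 57.5% held CACCC. Among the 11851 windows of genes that reached 1 FPKM, the shares were 10.5% and 63.1%.

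Pkm, the pyruvate kinase gene of most tissues, was at 609 FPKM in FL against 376 in BM (-0.70). It makes the M1 form with the upstream of a pair of mutually exclusive exons and the M2 form, typical of embryonic and dividing cells, with the downstream exon. Pkm-201 carries the downstream exon and was at 492 FPKM in FL against 299 in BM. Pkm-202 carries the upstream exon and was at 117 and 77.6 FPKM. The share of Pkm-201 was 80.8% in FL and 79.4% in BM, so the exon choice hardly differed while the level did. The exons are printed because the choice between them sets the form. Each is 167 bases long, they are identical at 103 positions (61.7%), and both were read from the GENCODE M21 transcript sequences by identifier.
Pkm-202, upstream alternative exon: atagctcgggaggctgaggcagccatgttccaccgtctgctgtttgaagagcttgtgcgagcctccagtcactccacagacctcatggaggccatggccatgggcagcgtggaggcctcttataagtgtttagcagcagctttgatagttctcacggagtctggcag
Pkm-201, downstream alternative exon: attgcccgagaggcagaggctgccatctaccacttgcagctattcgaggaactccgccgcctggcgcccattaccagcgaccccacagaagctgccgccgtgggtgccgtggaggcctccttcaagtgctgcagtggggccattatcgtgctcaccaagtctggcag

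**Figure D3:**
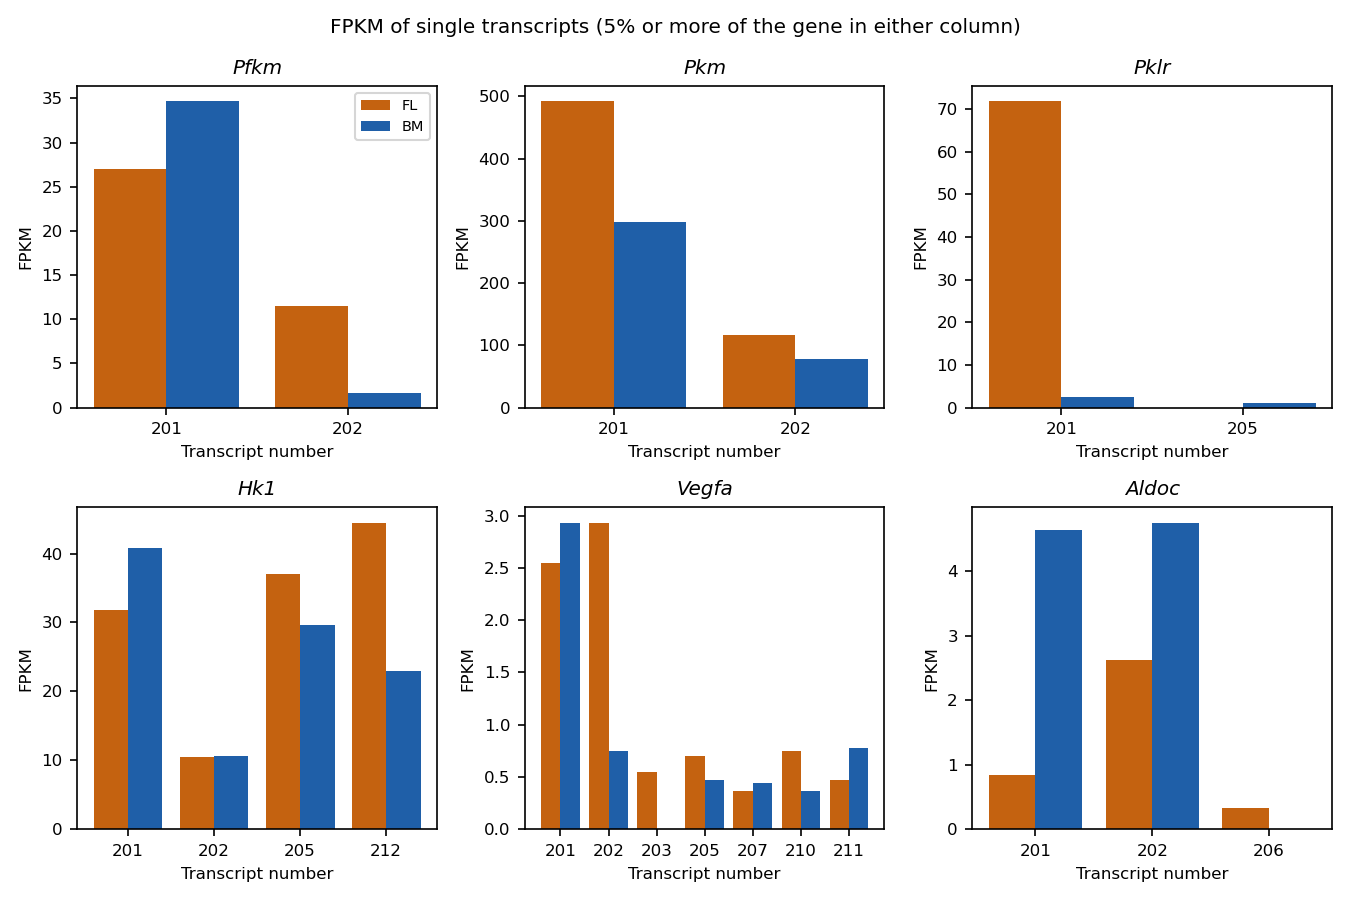
FPKM of the single transcripts of Pfkm, Pkm, Pklr, Hk1, Vegfa and Aldoc that hold at least 5% of the gene in either column, FL in orange and BM in blue, by the last part of the transcript name. Pkm-201 stays ahead of Pkm-202 in both columns (492 and 299 against 117 and 77.6 FPKM), whereas Pfkm-202 is at 11.5 FPKM in FL and 1.60 in BM.

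The lactate dehydrogenase subunit genes differed in opposite directions, both within 2-fold. Ldha was the most abundant of the 45 genes in both columns, at 797 FPKM in FL against 426 in BM. Its linked transcripts cover 45.1% of the gene value. Ldhb, the subunit that favours the conversion of lactate to pyruvate, was at 40.6 and 54.3 FPKM. Of the FPKM of both genes Ldhb held 4.85% in FL and 11.3% in BM by linked transcripts, and 2.31% in the gene table's BM column.

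Summed over the 19 enzyme genes from hexokinase to lactate dehydrogenase, linked transcripts took 0.573% of all FPKM in FL and 0.373% in BM. Without Tpi1 and Ldha the remaining 17 genes took 0.452% and 0.300%. In the gene table, whose values do not depend on the links, all 19 genes took 0.526% of the FL column and 0.747% of the BM column, and the 17 genes took 0.368% and 0.429%. The transcript table thus put BM below FL with and without those genes, while the gene table put its BM column above its FL column. These directions do not conflict, since FL of the transcript table and BM of the gene table hold nearly the same values. For the 17 genes they summed to 3001 and 3002 FPKM, so the same material was the higher side of both comparisons.

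The genes that control pyruvate entry into the mitochondria were within 2-fold for 5 of 6 members, where 22.1% of all genes were at least 2-fold apart. Pdha1 and Pdhb, which encode the subunits of the first enzyme of pyruvate dehydrogenase, were at 73.2 and 107 FPKM in FL and at 56.7 and 75.2 FPKM in BM. Pdk1, a kinase gene induced by HIF, was at 43.9 FPKM in FL against 35.2 in BM. Pdk2 was at 13.4 and 13.3 FPKM and Pdk3 at 31.5 and 32.2 FPKM. Each of these kinase genes was within 2-fold, as were most genes at 1 FPKM or more.

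Pdk4, the kinase gene known for its response to fasting and FOXO factors, was at 0.107 FPKM in FL against 1.65 in BM, a relative log2 ratio of 3.07. At this level the ratio depends on the pseudocount, and it was 3.82 with 0.01 FPKM added and 1.25 with 1 FPKM added. With the most abundant transcript alone it was 2.42, and Pdk4 was then under 1 FPKM and not counted as higher. Pdk4 held 2.01% of the kinase FPKM in BM and 0.120% in FL.

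**Figure D4:**
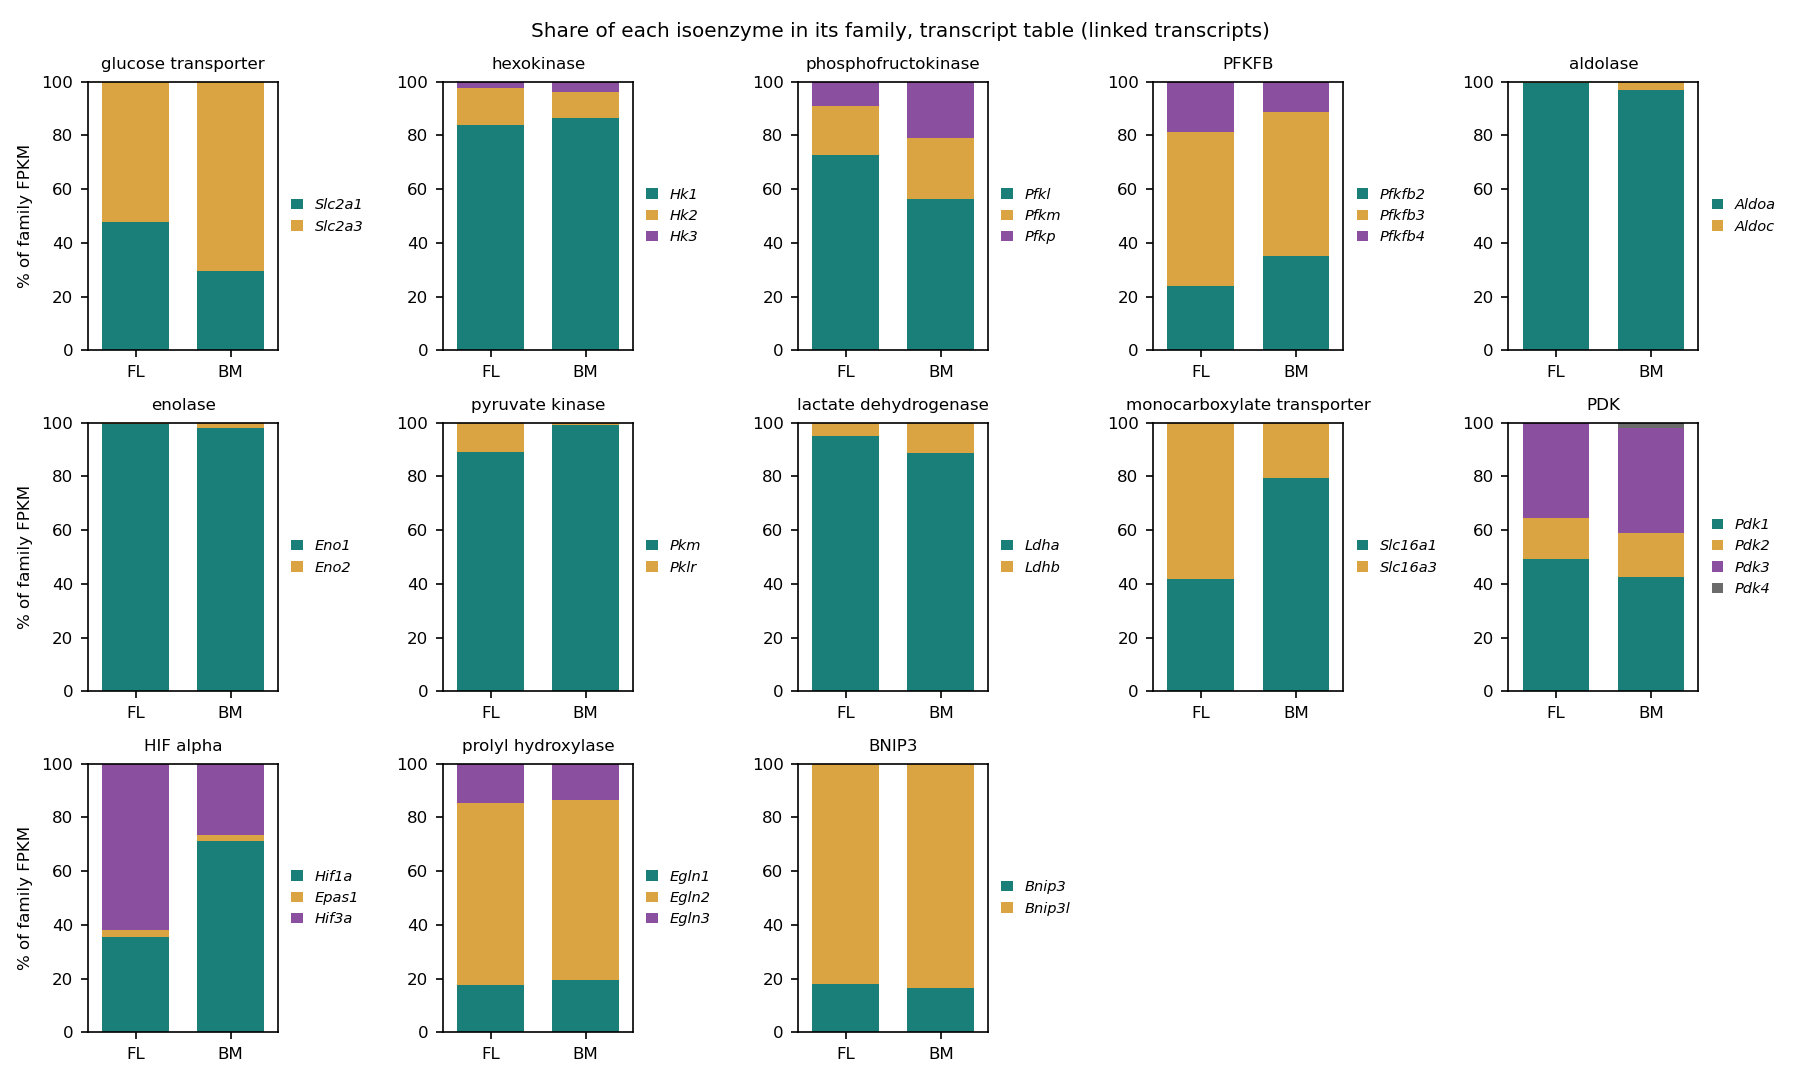
Share of each gene in the summed FPKM of its family, in percent, for the FL and BM columns of the transcript table in 13 families, from linked transcripts. The monocarboxylate transporter and HIF alpha families change their leading gene, from Slc16a3 (58.1%) to Slc16a1 (79.3%) and from Hif3a (62.0%) to Hif1a (71.3%), while the aldolases, enolases and prolyl hydroxylases keep their proportions closely.

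Among the HIF subunits, Hif1a and its partner gene Arnt were level and both other alpha subunit genes were lower in BM. Hif1a, which encodes the main inducer of glycolytic genes in low oxygen, was at 14.8 FPKM in FL against 13.8 in BM. Arnt was at 20.6 and 19.4 FPKM. Hif3a, whose products include forms that restrain the other HIFs, was at 25.8 FPKM in FL against 5.14 in BM (-2.31). Hif3a-202 was at 17.5 and 2.50 FPKM and Hif3a-201 at 7.54 and 1.77 FPKM, so both main transcripts were lower. Hif3a held 62.0% of the HIF alpha FPKM in FL and 26.6% in BM, and Hif1a 35.5% and 71.3%.

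Epas1, which encodes HIF-2 alpha and is known from endothelium and macrophages, was at 1.05 FPKM in FL against 0.405 in BM (-1.19). Both values are near or under the minimum of 1 FPKM, and with a pseudocount of 1 the ratio was -0.55. The macrophage markers given above were also lower in BM. Of 10 endothelial markers 4 were lower and 6 within 2-fold, and their sum was 156 FPKM in FL against 169 in BM. The part of either cell type in the Epas1 values was not tested.

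The oxygen sensors were all within 2-fold, with ratios from -0.69 to -0.02, beside 22.1% of all genes at least 2-fold apart. Egln2, the prolyl hydroxylase gene with the highest level, was at 44.8 FPKM in FL against 30.1 in BM. Egln1, the main regulator of HIF stability, was at 11.7 and 8.81 FPKM, and the HIF-induced Egln3 at 9.84 and 6.08 FPKM. Vhl, which encodes the ubiquitin ligase subunit that removes hydroxylated HIF, was at 10.6 and 10.5 FPKM. Egln2 held 67.6% of the hydroxylase FPKM in FL and 66.9% in BM.

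The HIF targets outside glycolysis did not move as a group: 1 of 5 was lower, 1 was higher and 3 were within 2-fold. The shares over all genes were 8.82% lower and 13.3% higher. Ankrd37, an ankyrin repeat gene strongly induced by HIF, was at 6.52 FPKM in FL against 2.51 in BM (-1.35). Ddit4, an inhibitor gene of mTOR signalling induced by hypoxia, stress and glucocorticoids, was at 7.18 and 16.4 FPKM (1.18). The mitophagy genes Bnip3 (22.1 and 19.4 FPKM) and Bnip3l (99.9 and 97.5 FPKM) were nearly level. Bnip3l is also known for clearing mitochondria from maturing red cells. The angiogenic factor gene Vegfa was at 8.30 and 5.73 FPKM, with 67.1% of its gene value in linked transcripts.

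The pathway's other genes, from a list of 68 symbols, were 2-fold apart about as often as all genes. Of 65 found, 49 reached 1 FPKM, of which 4 were at least 2-fold higher in BM, 6 were lower and 39 within 2-fold, with a median of -0.29. The 10 genes apart are 20.4% of the 49, against 22.1% of all genes. All 7 genes of the pentose phosphate pathway, which branches off after hexokinase to make NADPH and ribose, were within 2-fold and below 0 (median -0.58). Among the 12 other HIF targets at 1 FPKM or more, 3 were higher and 1 was lower, beside 13.3% and 8.82% of all genes. Ndrg1, a differentiation and stress gene, was at 3.53 FPKM in FL against 68.1 in BM, Bhlhe40, a clock-related repressor gene, at 0.735 and 4.82 FPKM, and Rora, a nuclear receptor gene, at 1.46 and 3.26 FPKM. Plin2, which coats lipid droplets, was the lower one, at 55.1 and 26.5 FPKM. Fbp1, which encodes the gluconeogenic enzyme that opposes phosphofructokinase, was at 2.40 and 13.2 FPKM. The lower enzyme genes included Pfkfb1, a further PFKFB gene, at 4.59 and 2.16 FPKM, and Tigar, whose product removes fructose 2,6-bisphosphate, at 2.09 and 0.843 FPKM. Pcx, which encodes pyruvate carboxylase, was also lower, but it had a linked sum of 1.93 FPKM in FL against 5.79 FPKM in the gene table's BM column.

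The gene table makes another comparison, since its BM column matches FL of the transcript table, and that material enters both comparisons. In its FL column 10 endothelial markers summed to 2903 FPKM and 8 stromal markers to 773 FPKM, against 178 and 11.7 FPKM in its BM column. Of 10 macrophage markers 7 were lower and 3 higher in BM there, summing to 710 FPKM in FL against 280 in BM. Of 11 erythroid markers 7 were higher and 1 lower (130 and 419 FPKM). All 10 neutrophil and monocyte markers were higher (39.1 and 562 FPKM). The part of these cell types in the values below was not tested. Of the 44 genes of the list that reached 1 FPKM there, 9 were at least 2-fold higher in BM, 6 were lower and 29 within 2-fold. The background was 36.0% of 13834 genes in either direction, 12.3% higher and 23.6% lower, relative to a median gene shifted by 0.24 on the log2 scale. Without that centring 14 genes of the list were higher and 6 lower.

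The lower genes of the gene table included 2 HIF alpha genes and a glucose carrier gene. Epas1 was at 49.3 FPKM in FL against 1.09 in BM, which is 49.2-fold lower, Ddit4 at 59.7 and 7.49 FPKM, Slc2a1 at 126 and 43.2 FPKM and Hif1a at 35.3 and 15.3 FPKM. Pfkfb3 (15.0 and 6.44 FPKM) and Hk3 (9.16 and 3.78 FPKM) completed the 6. The higher genes were led by Pklr, at 0.281 FPKM in FL against 78.3 in BM, and Hk1, at 27.6 and 184 FPKM. The others were Slc2a3, Slc16a1, Hk2, Pfkl, Pfkm, Aldoc and Ldha. Slc2a1 was the more abundant glucose carrier gene in this FL column, with 91.4% of the pair, and Epas1 the most abundant HIF alpha gene, with 50.5%.

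**Figure D5:**
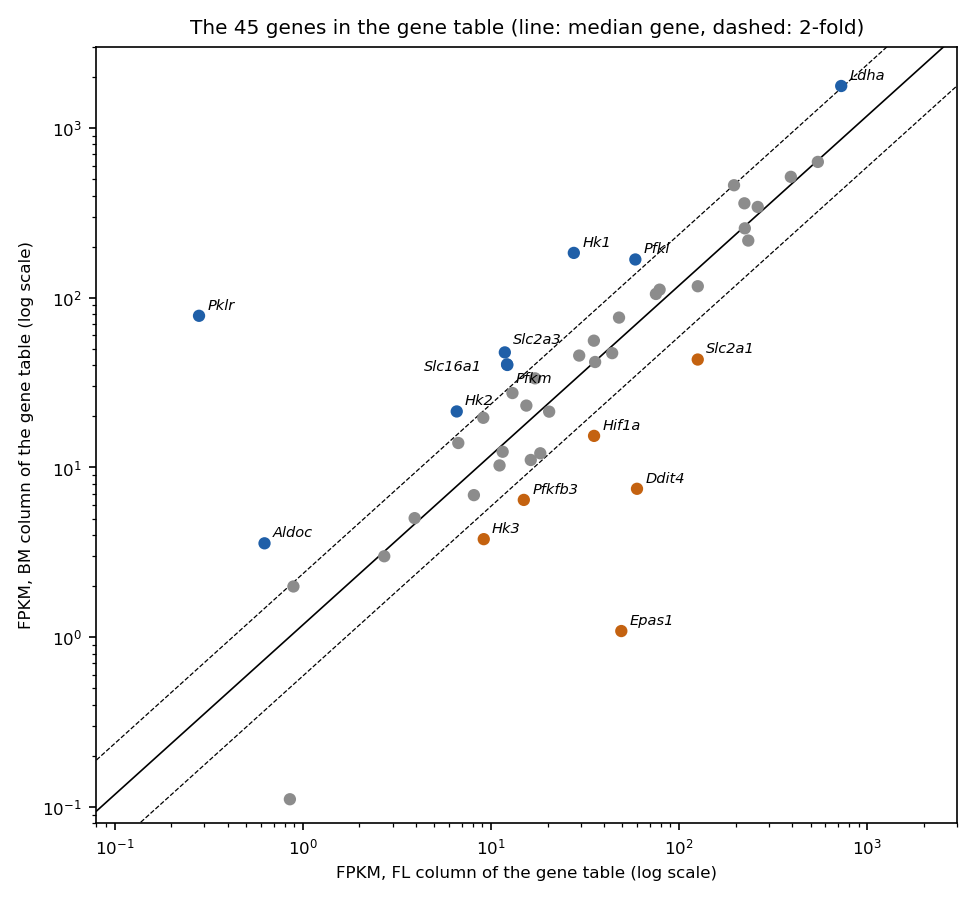
FPKM of the 45 genes in the FL column (x axis) and the BM column (y axis) of the gene table, both on log axes. The solid line is the median gene and the dashed lines 2-fold from it, and blue genes are at least 2-fold higher and orange genes at least 2-fold lower in BM. Pklr (0.281 and 78.3 FPKM) and Epas1 (49.3 and 1.09 FPKM) lie farthest from the line, and Ldha, the most abundant gene, lies just above the upper dashed line (727 and 1768 FPKM).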

How the data were processed

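Per the labels' protocols, polyadenylated RNA of sorted HSCs was sequenced in paired-end mode. The authors deposited FPKM values per gene and per transcript. The submitters' processing notes name TopHat, Cufflinks, featureCounts, Subread, edgeR and build mm9, with no role or version. Which annotation release they used is unknown here. Of the non-zero FL values of the gene table, 66.7% end in repeating decimals such as a mean of 3 leaves, and under 0.1% do in the other columns. The columns carry no replicate, so each value was taken as the authors' mean, with no SD and no test. The assignment of the BM columns to the adult samples rests on their header alone, and the check of the tables against each other puts it in doubt for one of the tables.

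Symbols and transcript-to-gene links came from GENCODE M21 by identifier: 76507 of 87641 transcripts were linked, and unlinked ones held 10.4% of the FPKM in FL and 10.9% in BM. Where a symbol had 2 gene identifiers (Aldoa), the one in the gene table was used. FPKM were summed per gene and compared as log2((BM + 0.1) / (FL + 0.1)) less the median of that value among genes that reached 1 FPKM in each column. Genes at 1 FPKM or more in either column with a ratio of 2-fold or more were counted. Near-identical copies of glycolytic genes share reads, so their values are estimates. Transcript starts were compared with RefSeq windows on GRCm38.p6.

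The 45 genes, the other lists and the rules were chosen with earlier results of these data known, and any of the 45 could be named, with other pathway genes that were 2-fold apart, some of which are not reported here. The GATA and CACCC letters and the genes whose sequences are printed were chosen after the values were seen. The calculation was tested on simulated data. Python 3.11.15, numpy 2.4.6, pandas 2.3.3 and matplotlib 3.10.9 were used.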

Additional observations from a re-analysis of the deposited data

How the results depend on the processing

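The count of 12 genes at least 2-fold apart in the transcript table was 10 to 13 under pseudocounts of 0.01 and 1, a filter at 5 FPKM, no filter, no centring, upper-quartile scaling, the gene table's BM column in place of FL, the most abundant transcript alone, and the 42 genes within the check, and the median stayed between -0.45 and -0.31. Single genes that reversed were Pfkfb4 (-1.14 with the gene table's BM column in place of FL) and Tpi1 (2.14 with the most abundant transcript alone). Both have linked sums far under the gene value. The share of all genes at least 2-fold apart, 22.1% in the main comparison, also differed by setting. With a pseudocount of 1, 11 of 45 genes of the list were apart, beside 15.5% of all genes. The filter at 5 FPKM gave 10 of 39 beside 15.7%, and no filter gave 12 of 45 beside 15.4%. How the list compared with all genes thus depended on the setting. The count of 13 came with the gene table's BM column in place of FL, where 27.4% of all genes were apart. It included Tpi1 (-7.23), Ldha (-1.93) and Pfkfb4, where a full gene value was set against a partial linked sum in BM. Pgam1 and Eno1 were then no longer counted. The count of 11 with the most abundant transcript alone included Tpi1. Without centring, 14 instead of 9 genes of the list were higher in the gene table. At a usage difference of 30 points, 0 genes remained in place of 1. The share of Pfkfb3 among the PFKFB genes was 57.5% in FL and 44.5% in the gene table's BM column. No paired analysis was possible because the columns carry no replicate numbers, and for the same reason no replicate could be left out. Depth is unknown, so the precision of genes near 1 FPKM, such as Pdk4 and Epas1, cannot be given.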

Other observations

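Some tissue-restricted relatives of the glycolytic genes were at 0 in the transcript table's BM column, whereas the brain-type Aldoc (9.40 FPKM) and the neuronal Eno2 (3.21 FPKM) were not. Those at 0 in BM were Hkdc1, Pgk2, Ldhc and Fbp2, a hexokinase-like gene, the testis phosphoglycerate kinase and lactate dehydrogenase genes and the muscle bisphosphatase gene. In FL, Hkdc1, Pgk2 and Fbp2 were also listed at 0, and Ldhc was at 0.464 FPKM.

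Low-level genes also differed in transcript use. Vegfa-202, which starts 8 bases after the annotated upstream start, was at 2.93 FPKM in FL against 0.753 in BM, whereas Vegfa-201, which starts 562 bases after it, was at 2.55 and 2.93 FPKM. Aldoc-201, with a start 105 bases before the first annotated one, was at 0.836 FPKM in FL against 4.65 in BM, and Aldoc-202, at the second, at 2.63 and 4.75 FPKM. Both genes were under 10 FPKM, where the split between transcripts is least certain.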
